A study of Homo sapiens with 12 samples.

Results

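The genes described here are 10 members of the Hippo pathway's output, read from RNA sequencing counts in 2 breast cancer cell lines: the co-activators YAP1 and WWTR1 (which encodes TAZ), the DNA-binding partners TEAD1 and TEAD4, the kinase LATS2, the adaptor AJUBA, and the target genes AMOTL2, ANKRD1, AXL and F3. They were chosen by symbol, as pathway effectors and target genes, and all 10 were found, each as 1 of the 57992 genes in the count table. BT-549 and SUM149 are established lines of triple-negative breast cancer, and in the study cells of each line stably expressed an RNA hairpin that lowers MUC1 (MUC1shRNA) or a control construct (CshRNA), to ask what MUC1-C, the C-terminal part of this transmembrane mucin, does to gene expression. The 4 groups were BT-549 MUC1shRNA, BT-549 CshRNA, SUM149 MUC1shRNA and SUM149 CshRNA, with 3 libraries in each. BT-549 grew in RPMI1640 with insulin, and SUM149 in Ham's F-12 with insulin and hydrocortisone, so line and medium cannot be told apart. The sample descriptions call the BT-549 controls vector. The cells were cultured in triplicate. The labels do not say whether a group is a pool or a clone, or whether the construct was introduced more than once, and the p-values then reflect the spread among these cultures alone.

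In the Hippo pathway, the kinases MST1 and MST2 activate the kinases LATS1 and LATS2, which phosphorylate YAP and TAZ and keep them out of the nucleus. When that restraint is low, for example in spread cells on a stiff matrix, YAP and TAZ bind TEAD transcription factors and switch on genes of growth, adhesion and matrix remodelling. Several targets act back on the pathway, among them LATS2 itself and AMOTL2, an angiomotin that holds YAP in the cytoplasm. YAP and TAZ are controlled largely through phosphorylation and location, which RNA counts do not measure.

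Libraries held 16373893 to 21248768 counts in BT-549 MUC1shRNA, 16332364 to 20745835 in BT-549 CshRNA, 7931614 to 9623924 in SUM149 MUC1shRNA and 19392422 to 24140623 in SUM149 CshRNA. In SUM149 the CshRNA libraries were thus 2.44 times as deep. MUC1, the hairpin's target, had 3.60, 6.02 and 4.28 CPM in BT-549 MUC1shRNA, against 51.9, 53.7 and 54.3 CPM in BT-549 CshRNA. It had 1.06, 0.334 and 0.482 CPM in SUM149 MUC1shRNA, against 16.4, 16.6 and 12.1 CPM in SUM149 CshRNA. CPM (counts scaled to a common library size) were computed over all 12 libraries, so that the 4 groups share a scale. By the chi-square of their counts, 2 BT-549 libraries stood apart from the others of their group, MUC1shRNA 2 (8.53 and 8.34 per degree of freedom, against 1.85 between the other two) and CshRNA 3 (14.5 and 13.7, against 4.43), as did SUM149 CshRNA 3 (13.5 and 10.6, against 3.80). Marker sums differed between the lines, and in part between the arms. The 7 epithelial genes summed to 808 to 1050 CPM in BT-549 MUC1shRNA, 329 to 383 CPM in BT-549 CshRNA, 1900 to 1990 CPM in SUM149 MUC1shRNA and 1990 to 2020 CPM in SUM149 CshRNA. Summed levels of 5 mesenchymal genes were 5420 to 6520, 4420 to 5080, 3030 to 3410 and 817 to 916 CPM in the same order of groups, and fibronectin (FN1) was the highest of them in every group. EPCAM averaged 0.0368 and 0.287 CPM in the BT-549 groups and 445 and 402 CPM in the SUM149 groups, with MUC1shRNA first. VIM averaged 1558 and 1518 CPM, and 32.3 and 31.4 CPM. With MUC1shRNA, KRT18 (655 CPM in BT-549 and 427 CPM in SUM149) and FN1 (2204 and 3103 CPM) went the other way. Of the receptors that define the tumour type, ERBB2 averaged 46.5, 48.5, 36.6 and 58.6 CPM in BT-549 MUC1shRNA, BT-549 CshRNA, SUM149 MUC1shRNA and SUM149 CshRNA. ESR1 averaged 0.116, 0.0522, 4.88 and 2.32 CPM in that order, and PGR at most 0.517 CPM in any group. Leukocyte, endothelial and fibroblast marker lists summed to at most 5.06, 30.2 and 4.21 CPM in any library, and PECAM1 was the highest endothelial gene in SUM149, where it averaged 9.72 CPM in SUM149 MUC1shRNA and 28.4 CPM in SUM149 CshRNA.

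MUC1 silencing went with opposite changes among the pathway's parts. In both lines the co-activator WWTR1 and the inhibitory kinase LATS2 rose, and the adaptor AJUBA and the angiomotin AMOTL2 fell. In BT-549 the changes of WWTR1 and AMOTL2 were small, and their calls were lost under several alternatives given below. YAP1 passed the test in neither line. F3, TEAD1 and TEAD4 rose in SUM149, and AXL fell in BT-549. A gene counted as changed at an adjusted p below 0.05 in edgeR's quasi-likelihood test over all genes with enough counts. In BT-549, 5 of the 9 members tested changed, 2 of them higher and 3 lower, where 33.3% of all 13200 tested genes changed (16.8% higher and 16.5% lower). In SUM149, 7 of 9 changed, 5 higher and 2 lower, where 56.5% of 14178 genes changed (27.6% higher and 28.9% lower). The median log2 fold change over the 9 members was 0.01 in BT-549 and 0.30 in SUM149, and over all tested genes it was -0.0053 and -0.03. With many genes changed in each line and only 9 members tested, neither count is far from its background. The count for BT-549 also ran from 2 to 6 when single libraries were left out. The groups did not overlap for 6 of 9 members in BT-549 and 7 of 9 in SUM149, and for 47.0% and 62.6% of all tested genes. ANKRD1 had too few counts to be tested.

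**Figure D1:**
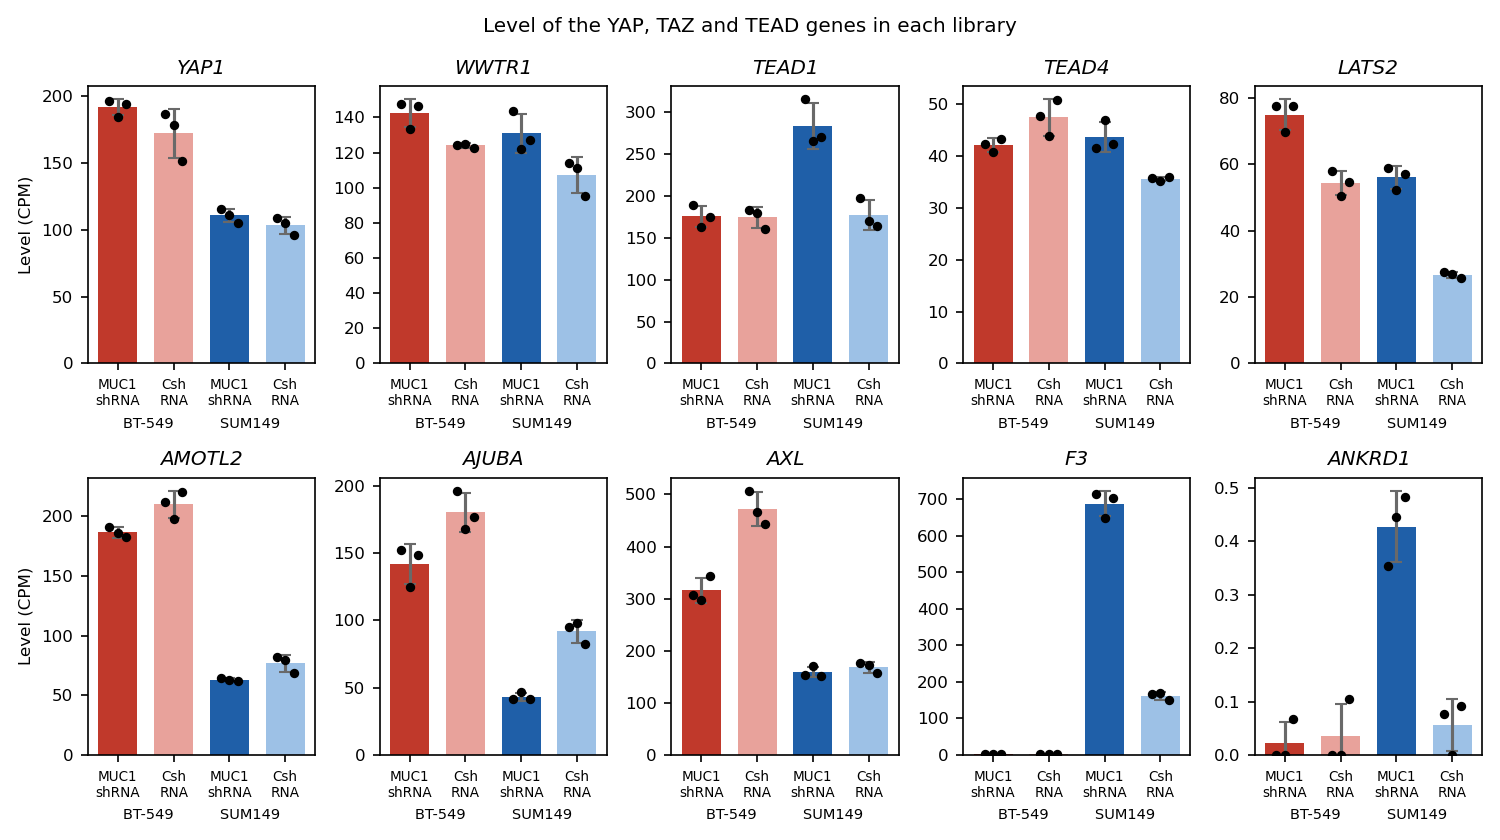
Level in CPM (vertical axis, from 0) of each of the 10 genes in the 4 groups, with bars as means of 3 libraries, points as libraries and error bars as SD. LATS2 averaged 74.9 and 56.1 CPM in the MUC1shRNA groups of BT-549 and SUM149, above 54.4 and 26.7 CPM in their CshRNA groups, and F3 lay below 2 CPM in every BT-549 library.

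**Figure D2:**
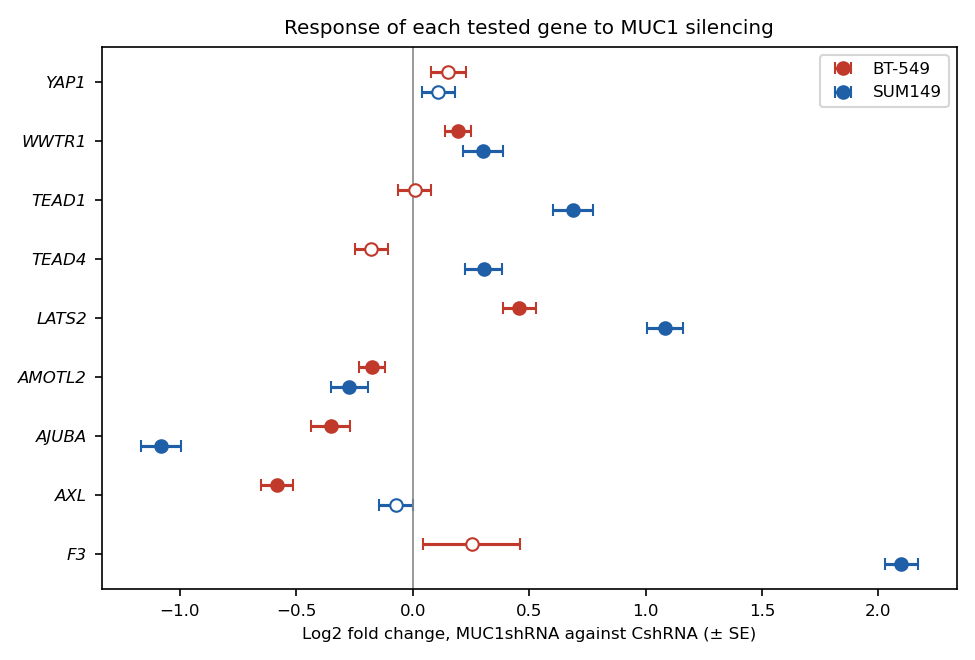
Log2 fold change of MUC1shRNA against CshRNA (horizontal axis) with its SE for the 9 tested genes in BT-549 (red) and SUM149 (blue), where filled points passed edgeR's test and open points did not. WWTR1 and LATS2 lie right of 0 and AMOTL2 and AJUBA left of 0 in both lines, and F3 in SUM149 lies farthest out at 2.10.

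YAP1 (ENSG00000137693.13, GRCh38 chr11:102110461-102233423, plus strand) encodes the co-activator YAP. It had 196, 184 and 194 CPM in BT-549 MUC1shRNA, against 186, 178 and 151 CPM in BT-549 CshRNA. In SUM149 it had 115, 111 and 105 CPM with MUC1shRNA, against 109, 105 and 96.0 CPM with CshRNA. The groups overlapped in both lines, and the lowest value in each line was that of CshRNA 3, a library that stood apart. The log2 fold changes were 0.15 (SE 0.08, edgeR adjusted p = 0.14) in BT-549 and 0.11 (SE 0.07, edgeR adjusted p = 0.20) in SUM149, and the difference between them was 0.06 (SE 0.11, edgeR adjusted p = 0.72). YAP1 shares 9.97% of its exon bases with AP000942.2 on the opposite strand, and the strand setting of the counting is not known.

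WWTR1 (ENSG00000018408.14, GRCh38 chr3:149517235-149736714, minus strand) encodes TAZ, the paralog of YAP. It had 148, 133 and 146 CPM in BT-549 MUC1shRNA, against 124, 125 and 123 CPM in BT-549 CshRNA. In SUM149 its levels were 144, 122 and 127 CPM with MUC1shRNA and 114, 111 and 95.4 CPM with CshRNA. Every MUC1shRNA library lay above every CshRNA library of its line. WWTR1 rose by 0.20 on the log2 scale in BT-549 (SE 0.06, edgeR adjusted p = 0.023) and by 0.30 in SUM149 (SE 0.08, edgeR adjusted p = 0.0083), and the difference of -0.09 between the lines did not pass (SE 0.11, edgeR adjusted p = 0.55). The rise in BT-549 was small, and it did not pass without MUC1shRNA 1 (adjusted p = 0.112), MUC1shRNA 3 (0.0948) or CshRNA 1 (0.0675), with all 12 libraries in one edgeR fit (0.0643) or with a replicate block (0.0757). WWTR1-AS1, on the opposite strand, shares 9.45% of its exon bases.

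Set against each other per kilobase of exon, YAP1 was the higher of the co-activators in all 12 libraries. The ratio of WWTR1 to YAP1 was 0.540 to 0.565 in BT-549 MUC1shRNA and 0.499 to 0.608 in BT-549 CshRNA. It was 0.821 to 0.932 in SUM149 MUC1shRNA and 0.743 to 0.797 in SUM149 CshRNA. The arms overlapped in BT-549 and did not overlap in SUM149, where TAZ transcripts came nearer to those of YAP with MUC1shRNA. Ratios between genes rest on the annotated exon length (6296 bases for YAP1 and 8413 for WWTR1), which may differ from the length transcribed in these cells.

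TEAD1 (ENSG00000187079.15, GRCh38 chr11:12674591-12944483, plus strand) and TEAD4 (ENSG00000197905.8, chr12:2959330-3040673, plus strand) encode the factors that carry YAP and TAZ to DNA. TEAD1 had 188, 163 and 175 CPM in BT-549 MUC1shRNA, against 183, 180 and 160 CPM in BT-549 CshRNA. In SUM149 it had 315, 265 and 270 CPM with MUC1shRNA, against 197, 170.4 and 163 CPM with CshRNA. TEAD1 thus rose in SUM149 (log2 fold change 0.69, SE 0.09, edgeR adjusted p = 1.8e-05), with all MUC1shRNA libraries above all CshRNA libraries. In BT-549 the groups overlapped (0.0081, SE 0.07, edgeR adjusted p = 0.94), and the sign of this small value turned with upper-quartile scaling (-0.0061). TEAD4 had 42.2, 40.6 and 43.3 CPM in BT-549 MUC1shRNA, against 47.7, 43.7 and 50.7 CPM in BT-549 CshRNA. Its SUM149 levels were 41.5, 46.9 and 42.3 CPM with MUC1shRNA and 35.7, 35.2 and 35.9 CPM with CshRNA. The MUC1shRNA libraries lay below the CshRNA libraries in BT-549 and above them in SUM149. TEAD4 rose in SUM149 (0.30, SE 0.08, edgeR adjusted p = 0.0045), while in BT-549 it was at -0.18 (SE 0.07, edgeR adjusted p = 0.084), and passed there only when CshRNA 2 was left out (adjusted p = 0.0367).

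The 4 TEAD genes were all present, in different proportions in each line. Per kilobase of exon, TEAD1 made up 27.0% to 29.6% of the summed TEAD level in BT-549 MUC1shRNA and 24.5% to 29.9% in BT-549 CshRNA. Its share was 36.1% to 44.3% in SUM149 MUC1shRNA, against 30.0% to 33.2% in SUM149 CshRNA, without overlap. TEAD2 took 30.8% to 32.2% in BT-549 MUC1shRNA, 27.4% to 29.9% in BT-549 CshRNA, 12.1% to 14.6% in SUM149 MUC1shRNA and 13.2% to 16.0% in SUM149 CshRNA. TEAD3 went the other way between the lines, with 9.19% to 10.2% and 9.69% to 10.5% in the BT-549 groups and 16.9% to 20.5% and 24.8% to 26.4% in the SUM149 groups, each time with MUC1shRNA first. TEAD4 held 26.4% to 35.2% in all 12 libraries.

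**Figure D3:**
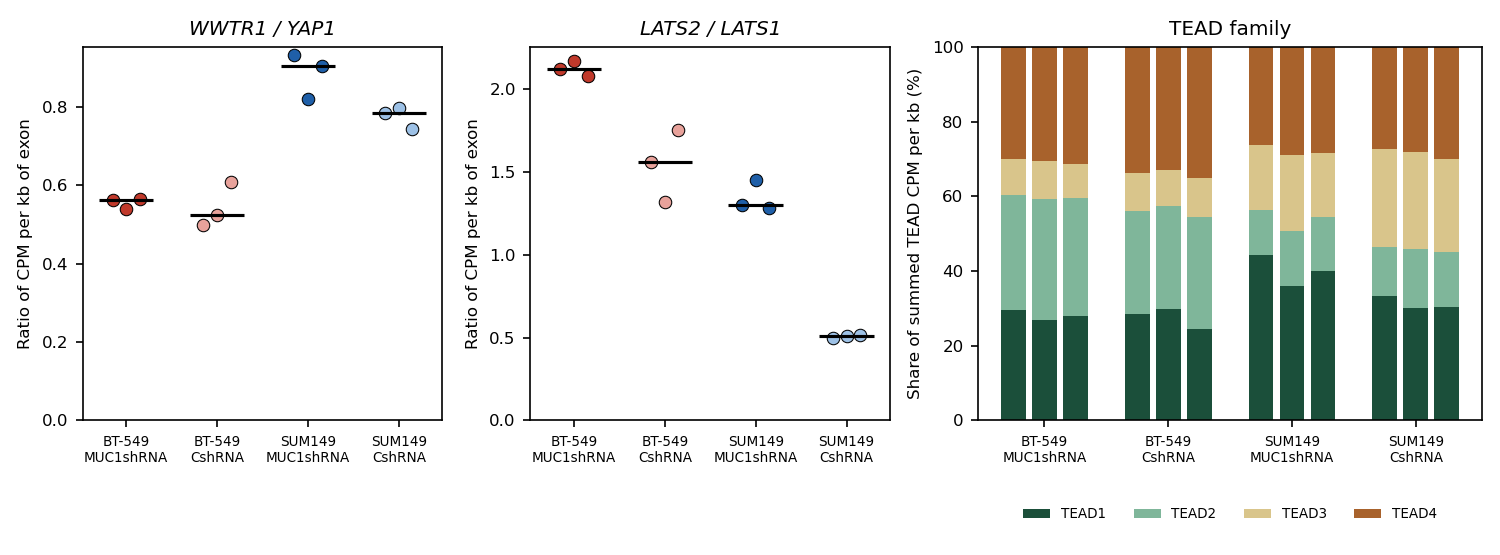
Ratio of CPM per kilobase of exon of WWTR1 to YAP1 (left) and of LATS2 to LATS1 (middle) in each library, with black lines at the median of 3 libraries, and the share of each TEAD gene in the summed TEAD level of each library (right, in percent, 1 bar per library). The LATS2 to LATS1 ratio is 2.08 to 2.17 in BT-549 MUC1shRNA, 1.32 to 1.75 in BT-549 CshRNA, 1.28 to 1.45 in SUM149 MUC1shRNA and 0.496 to 0.515 in SUM149 CshRNA.

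LATS2 (ENSG00000150457.8, GRCh38 chr13:20973032-21061547, minus strand) encodes a kinase that inactivates YAP and TAZ and is itself one of their targets. It had 77.5, 69.6 and 77.7 CPM in BT-549 MUC1shRNA, against 57.8, 50.6 and 54.8 CPM in BT-549 CshRNA. In SUM149 it had 58.9, 52.3 and 57.2 CPM with MUC1shRNA, against 27.4, 26.9 and 25.8 CPM with CshRNA. Every MUC1shRNA library of a line was above every CshRNA library. LATS2 rose by 0.46 on the log2 scale in BT-549 (SE 0.07, edgeR adjusted p = 0.0011) and by 1.08 in SUM149 (SE 0.08, edgeR adjusted p = 1.0e-07), which is 1.37-fold and 2.12-fold. The rise was larger in SUM149, with a difference of -0.61 between the lines (BT-549 minus SUM149, SE 0.10, edgeR adjusted p = 2.9e-04). Its paralog LATS1 averaged 54.7 ± 4.43 CPM in BT-549 MUC1shRNA and 55.1 ± 5.80 CPM in BT-549 CshRNA, and it fell in SUM149 (65.1 ± 8.01 CPM with MUC1shRNA and 81.8 ± 4.12 CPM with CshRNA, SD, n = 3 each, log2 fold change -0.32, edgeR adjusted p = 0.0067). Without SUM149 MUC1shRNA 2 that fall was -0.20 (edgeR adjusted p = 0.0402). Per kilobase the ratio of LATS2 to LATS1 was thus higher with MUC1shRNA in both lines, without overlap between the arms, and in SUM149 LATS2 was the higher paralog with MUC1shRNA and the lower one with CshRNA.

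AJUBA (ENSG00000129474.15, GRCh38 chr14:22971174-22982642, minus strand) encodes a LIM domain adaptor that binds LATS kinases at cell junctions under tension and limits their activity. It had 152, 125 and 148 CPM in BT-549 MUC1shRNA, against 196, 168 and 177 CPM in BT-549 CshRNA. In SUM149 it had 41.4, 46.5 and 41.2 CPM with MUC1shRNA, against 94.9, 98.3 and 82.2 CPM with CshRNA. In each line the highest MUC1shRNA value was below the lowest CshRNA value, by a small margin in BT-549 and by a wide one in SUM149. AJUBA fell by 0.35 on the log2 scale in BT-549 (SE 0.09, edgeR adjusted p = 0.011) and by 1.08 in SUM149 (SE 0.09, edgeR adjusted p = 3.1e-07). The difference between the lines was 0.74 (SE 0.13, edgeR adjusted p = 3.6e-04). The fall in BT-549 narrowly missed the threshold without CshRNA 1 (adjusted p = 0.051).

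AMOTL2 (ENSG00000114019.14, GRCh38 chr3:134355874-134375479, minus strand) encodes a junctional scaffold that sequesters YAP. It had 191, 186 and 183 CPM in BT-549 MUC1shRNA, against 212, 198 and 220.5 CPM in BT-549 CshRNA. In SUM149 it had 64.7, 62.7 and 62.2 CPM with MUC1shRNA, against 82.1, 79.9 and 68.7 CPM with CshRNA. The arms did not overlap in either line, and both falls were small, -0.17 in BT-549 (SE 0.06, edgeR adjusted p = 0.040) and -0.27 in SUM149 (SE 0.08, edgeR adjusted p = 0.010). The difference between them was 0.11 (SE 0.10, edgeR adjusted p = 0.38). In BT-549 the call was lost with DESeq2 (adjusted p = 0.0632), without a filter (0.0676), with all 12 libraries in one fit (0.0693), with a replicate block (0.104), and without MUC1shRNA 1, 2 or 3 (0.0912, 0.0781 and 0.144), CshRNA 1 (0.0988) or CshRNA 3 (0.0915). In SUM149 it was lost without MUC1shRNA 3 (0.0554).

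AXL (ENSG00000167601.11, GRCh38 chr19:41219203-41261766, plus strand) encodes a receptor tyrosine kinase linked to invasion and drug resistance in breast cancer. It had 308, 297 and 343 CPM in BT-549 MUC1shRNA, against 507, 466 and 444 CPM in BT-549 CshRNA. In SUM149 it had 154, 171 and 152 CPM with MUC1shRNA, against 176, 172 and 157 CPM with CshRNA. The arms stood apart in BT-549 and overlapped in SUM149. AXL fell by 0.58 on the log2 scale in BT-549 (SE 0.07, edgeR adjusted p = 2.7e-04), while its value in SUM149 was -0.07 (SE 0.07, edgeR adjusted p = 0.43). The responses differed by -0.50 (BT-549 minus SUM149, SE 0.10, edgeR adjusted p = 0.0014).

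F3 (ENSG00000117525.13, GRCh38 chr1:94529225-94541800, minus strand) encodes tissue factor, which starts blood coagulation. It had 714, 648 and 703 CPM in SUM149 MUC1shRNA, against 168, 169 and 150 CPM in SUM149 CshRNA. In BT-549 it had 1.96, 1.95 and 1.67 CPM with MUC1shRNA, against 1.34, 1.79 and 1.57 CPM with CshRNA, which is 25 to 38 counts a library in the MUC1shRNA arm and 24 to 30 in the CshRNA arm. F3 was thus abundant in SUM149 and close to absent from BT-549, and only in SUM149 did the arms stand apart. In SUM149 it rose 4.28-fold (log2 fold change 2.10, SE 0.07, edgeR adjusted p = 1.3e-10), and in BT-549 its log2 fold change was 0.25 (SE 0.21, edgeR adjusted p = 0.38). The difference of -1.82 between the lines passed the test (SE 0.20, edgeR adjusted p = 3.9e-06). In bulk RNA, fewer cells that express a gene and less RNA of it per cell cannot be told apart, for F3 as for the others.

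ANKRD1 (ENSG00000148677.6, GRCh38 chr10:90912096-90921276, minus strand) encodes an ankyrin repeat protein and is among the target genes most often used as a readout of YAP and TAZ. It was close to silent in both lines. Its counts were 0, 0 and 1 in BT-549 MUC1shRNA, against 0, 0 and 2 in BT-549 CshRNA. In SUM149 they were 3, 4 and 5 with MUC1shRNA, against 2, 0 and 2 in the deeper CshRNA libraries, or 0.354 to 0.482 CPM and 0 to 0.0913 CPM. With so few counts it did not pass the filter in any fit. Fitted without a filter, its SUM149 change had an edgeR adjusted p = 0.0089, a result that rests on 12 counts in the MUC1shRNA arm and 4 in the CshRNA arm. No fold change is given for it.

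TEAD factors bind a short DNA element, GGAATG or CATTCC on the other strand. Promoter stretches of 5 of the 6 members that hold it are shown, so that the element can be read in its context. RefSeq promoter windows on GRCh38.p14, 250 bases before to 50 after a transcription start, were available for 8 of the 10 members, in 12 windows. The element was found in 6 of these 12 windows, and in 14.0% of all 35116 windows of this length. For AMOTL2, AJUBA and AXL it was in 1 of 2 windows, and for ANKRD1, LATS2 and YAP1 in their single window, while F3 and WWTR1 had none. ANKRD1 had 2 matches, starting 220 and 128 bases before the start, as few windows do (1.36% hold at least 2). The stretches below run 5′ to 3′ along the gene's strand, with the element in capitals. They are chr10:90921150-90921337 (minus) for ANKRD1, chr3:134374451-134374576 (minus) for AMOTL2, chr14:22976843-22976961 (minus) for AJUBA, chr19:41226505-41226608 (plus) for AXL and chr13:21061560-21061589 (minus) for LATS2.
ANKRD1: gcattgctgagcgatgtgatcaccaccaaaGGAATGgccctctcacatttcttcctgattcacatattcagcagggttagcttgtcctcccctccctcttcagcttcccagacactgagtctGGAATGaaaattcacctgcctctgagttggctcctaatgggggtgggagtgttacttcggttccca
AMOTL2: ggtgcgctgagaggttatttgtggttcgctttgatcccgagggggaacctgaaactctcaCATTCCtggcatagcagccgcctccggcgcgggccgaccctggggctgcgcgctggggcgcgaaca
AJUBA: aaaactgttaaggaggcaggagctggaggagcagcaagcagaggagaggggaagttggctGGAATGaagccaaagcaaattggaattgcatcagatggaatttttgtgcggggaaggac
AXL: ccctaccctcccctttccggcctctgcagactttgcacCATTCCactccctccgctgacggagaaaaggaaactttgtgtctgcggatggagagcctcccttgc
LATS2: cgtgacgcccgtGGAATGccaacaatgtag

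The elements begin 69 bases before the start in AMOTL2, 59 in AJUBA, 212 in AXL and at base 10 after it in LATS2. For AMOTL2, AJUBA and AXL this is a downstream start inside the annotated gene. The window at the annotated 5′ end of these genes held no match, and which start these cells use was not measured. The start of the ANKRD1 window also lies inside its annotated gene. Both WWTR1 windows lie inside the annotated gene, so its annotated 5′ end was not searched. AMOTL2 and AJUBA, with a match close before a downstream start, fell in both lines, AXL fell in BT-549, and LATS2 rose in both. YAP1, with a match in its window, passed the test in neither line, and ANKRD1 with 2 matches was near 0 counts. WWTR1, without a match in either of its internal windows, rose in both lines. F3, without a match in its window, had the largest change of the 9 tested members in SUM149. A match is a description of these letters and not evidence of binding, which was not measured.

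To ask which responses differed between the lines, an interaction term was fitted with edgeR. The difference passed for 6 of 9 tested members, where 39.6% of 15649 genes passed (19.5% with a larger value in BT-549 and 20.1% with a larger value in SUM149). These are signed values, so the larger one need not be the larger change. AJUBA was the member with the larger value in BT-549, where it fell less (-0.35, against -1.08 in SUM149). TEAD1, TEAD4, LATS2, AXL and F3 had the larger value in SUM149. For AXL this was -0.07 in SUM149, which did not pass, against a fall of -0.58 in BT-549. For YAP1, WWTR1 and AMOTL2 the difference did not pass, with standard errors of 0.11, 0.11 and 0.10 on the log2 scale, which does not show that the responses were alike. WWTR1 and LATS2 were 2 of the 724 genes higher in both lines and AMOTL2 and AJUBA 2 of the 619 lower in both, of 12125 genes tested in both (5.97% and 5.11%).

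Between the control groups the lines differed for most members, as for most genes. With CshRNA, 8 of 9 tested members differed, 7 higher in BT-549 and 1 lower, where 83.0% of 15649 genes differed (39.5% higher and 43.5% lower). The groups did not overlap for 8 of 9 members and for 84.0% of the genes. AXL and AMOTL2 were 2.80-fold and 2.73-fold higher in BT-549 CshRNA than in SUM149 CshRNA (log2 1.49 and 1.45, SE 0.07 each, edgeR adjusted p = 3.8e-11 and 2.0e-11). LATS2 (1.03), AJUBA (0.98), YAP1 (0.74) and TEAD4 (0.41) were also higher in BT-549, with edgeR adjusted p of at most 5.5e-05. F3 was far lower in BT-549, with a log2 difference of -6.70 (SE 0.10, edgeR adjusted p = 1.6e-16). WWTR1 was 0.21 higher (edgeR adjusted p = 0.017), which was lost with upper-quartile scaling (0.09, adjusted p = 0.26) and without SUM149 CshRNA 3 (0.14, adjusted p = 0.0889). TEAD1 did not pass, at -0.02 (SE 0.09, edgeR adjusted p = 0.80). This upper-quartile scaling moved the median over all genes to -0.19, against -0.07 with TMM, so values between the lines carry a shift of that size.

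Across the 4 groups, AMOTL2 and AJUBA kept one order without overlap between neighbours, with BT-549 CshRNA highest, then BT-549 MUC1shRNA, SUM149 CshRNA and SUM149 MUC1shRNA. AXL had the same order, with overlap between the SUM149 groups. LATS2 was highest in BT-549 MUC1shRNA and lowest in SUM149 CshRNA, with SUM149 MUC1shRNA overlapping BT-549 CshRNA between them. For WWTR1, SUM149 MUC1shRNA overlapped both BT-549 groups, which did not overlap each other. YAP1 separated the lines and not the arms. Of 64 pathway genes and members with enough counts, those whose group pattern was most like that of YAP1 were DOCK5, TEAD2 and STK4, with root mean square differences of 0.147, 0.151 and 0.162 between log2 group means centred over the 4 groups. Most like WWTR1 were STK3, TAOK2 and TEAD4 (0.108, 0.115 and 0.129). Such likeness did not mean the same direction with MUC1shRNA. In BT-549, WWTR1 averaged 142 CPM with MUC1shRNA and 124 CPM with CshRNA. TAOK2 (62.9 and 67.6 CPM) and TEAD4 (42.05 and 47.38 CPM) went the other way, and STK3 (116 and 112 CPM) did not. YAP1 averaged 191 and 172 CPM there. DOCK5 (151 and 164 CPM) and STK4 (191 and 225 CPM) went the other way, and TEAD2 (56.9 and 51.85 CPM) did not.

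The upstream part of the pathway was followed in 21 genes of the kinase core and its regulators. This list and that of the cofactors were chosen with earlier results of these data known. Of 20 tested in BT-549, 5 rose, 5 fell and 10 did not pass, with a median log2 fold change of -0.02, where 33.3% of all genes changed. In SUM149, 10 rose, 3 fell and 7 did not pass, with a median of 0.28, where 56.5% of all genes changed (27.6% higher and 28.9% lower), so the number called is not far from the background there. FRMD6, a FERM domain protein that activates the pathway, rose in both lines. It averaged 160 ± 16.5 CPM in BT-549 MUC1shRNA and 106 ± 5.29 CPM in BT-549 CshRNA, and 88.9 ± 12.4 CPM in SUM149 MUC1shRNA and 34.2 ± 0.573 CPM in SUM149 CshRNA (SD, n = 3 each; log2 fold changes 0.59 and 1.39, edgeR adjusted p = 5.0e-04 and 4.4e-08). The other genes with the smallest adjusted p in BT-549 were FAT4, an atypical cadherin, which rose by 0.33, and FAT1, also an atypical cadherin, and WWC1 (the scaffold KIBRA), which fell by 0.41 and 0.75. Both passed in the other direction in SUM149. WWC1 averaged 24.2 ± 3.64 CPM in BT-549 MUC1shRNA and 40.7 ± 3.24 CPM in BT-549 CshRNA, against 104 ± 2.25 CPM in SUM149 MUC1shRNA and 69.6 ± 3.16 CPM in SUM149 CshRNA (SD, n = 3 each), a rise of 0.59 in SUM149 (edgeR adjusted p = 4.6e-06). FAT1 rose there by 0.23 (edgeR adjusted p = 0.020), a call lost with upper-quartile scaling (0.0704) and without SUM149 CshRNA 2 (0.123), MUC1shRNA 1 (0.0717) or MUC1shRNA 3 (0.0748). In SUM149, MAP4K4, a kinase that can activate LATS kinases, rose by 1.07, and LATS1 and STK38L, a kinase related to LATS, fell by 0.32 and 0.39. The call for STK38L was lost without SUM149 MUC1shRNA 3 (edgeR adjusted p = 0.0528).

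Among the angiomotins, the other TEADs and cofactors, calls went in both directions. Of 9 tested in BT-549, 3 rose and 3 fell, with a median of -0.08, where 33.3% of all genes changed. Of 8 in SUM149, 3 rose and 2 fell, with a median of 0.02, a number near the background of 56.5%. TEAD2 and TEAD3 passed in neither line, with edgeR adjusted p of 0.19 and 0.47 in BT-549 and 0.057 and 0.18 in SUM149. VGLL3, a TEAD cofactor, averaged 35.1 ± 5.07 CPM in SUM149 MUC1shRNA and 6.88 ± 1.04 CPM in SUM149 CshRNA (SD, n = 3 each), a rise of 2.36 (SE 0.14, edgeR adjusted p = 1.3e-08). In BT-549 it fell, with 83.3 ± 19.9 CPM in MUC1shRNA and 138 ± 34.5 CPM in CshRNA (SD, n = 3 each; -0.73, SE 0.20, edgeR adjusted p = 0.020). That fall did not pass with DESeq2 (adjusted p = 0.056), with a replicate block (0.0589), or without BT-549 CshRNA 1 (0.0859) or CshRNA 2 (0.0626). PTPN14, a phosphatase that restrains YAP and is also its target, fell in BT-549 (-0.42, edgeR adjusted p = 5.9e-04) and in SUM149 (-0.44, edgeR adjusted p = 4.3e-04). AMOTL1, the paralog of AMOTL2, fell in BT-549 by 0.27 and rose in SUM149 by 0.60, and RASSF8 rose in BT-549 by 0.38 and fell in SUM149 by 0.39. In BT-549, VGLL4, which competes with YAP for TEADs, rose by 0.36, and in SUM149 it was at 0.20 (edgeR adjusted p = 0.033). The SUM149 call was lost when CshRNA 1, 2 or 3 or MUC1shRNA 3 was left out (0.0537 to 0.127). It was also lost with upper-quartile scaling (0.114), without a filter (0.165), at thinned depth (0.108) and with a replicate block (0.0584). The fall of AMOTL1 in BT-549 did not pass without MUC1shRNA 1 (edgeR adjusted p = 0.0652), MUC1shRNA 3 (0.075) or CshRNA 1 (0.0685) or with a replicate block (0.0566), and the rise of VGLL4 in BT-549 was lost at thinned depth (0.0612).

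A list of 26 other target genes was read in the same way. It too was chosen with earlier results of these data known, so its counts beside all genes are a description and not an independent test. All 26 were tested in SUM149, where 15 rose, 6 fell and 5 did not pass, with a median of 0.45, against 27.6% higher, 28.9% lower and a median of -0.03 over all genes. Of 23 tested in BT-549, 8 rose, 6 fell and 9 did not pass, with a median of 0.03, against 16.8% higher, 16.5% lower and a median of -0.0053 over all genes. CCN1, the matricellular protein CYR61 and a common YAP readout, averaged 151 ± 5.95 CPM in SUM149 MUC1shRNA and 28.7 ± 2.85 CPM in SUM149 CshRNA (SD, n = 3 each), a rise of 2.40 (SE 0.08, edgeR adjusted p = 1.2e-10). In BT-549 it stood at 894 ± 97.6 CPM with MUC1shRNA and 859 ± 24.9 CPM with CshRNA (SD, n = 3 each; 0.05, edgeR adjusted p = 0.62), and it passed there without the 2 libraries that stood apart (0.16, edgeR adjusted p = 0.0116). CCN2, connective tissue growth factor, rose in BT-549, with 449 ± 24.2 CPM in MUC1shRNA and 266 ± 20.4 CPM in CshRNA (SD, n = 3 each; 0.75, SE 0.07, edgeR adjusted p = 4.8e-05), and it rose in SUM149 by 0.58 (edgeR adjusted p = 9.1e-04). CCDC80, a secreted matrix protein, rose in SUM149 by 3.35 (34.8 ± 1.04 CPM with MUC1shRNA and 3.42 ± 0.105 CPM with CshRNA, SD, n = 3 each). In BT-549 it fell, with 162 ± 32.4 CPM in MUC1shRNA and 267 ± 28.4 CPM in CshRNA (SD, n = 3 each; -0.72, SE 0.13, edgeR adjusted p = 0.0028). The transglutaminase TGM2 rose by 0.83 in BT-549 and by 2.39 in SUM149. In BT-549, the IGF-binding protein IGFBP3 and FJX1 fell by 1.21 and 0.40. In SUM149, the growth factor FGF2 and the stress gene GADD45A fell by 1.36 and 0.61. FGF2 rose in BT-549, with 352 ± 49.5 CPM in MUC1shRNA and 234 ± 38.5 CPM in CshRNA (SD, n = 3 each; 0.58, SE 0.13, edgeR adjusted p = 0.0067).

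**Figure D4:**
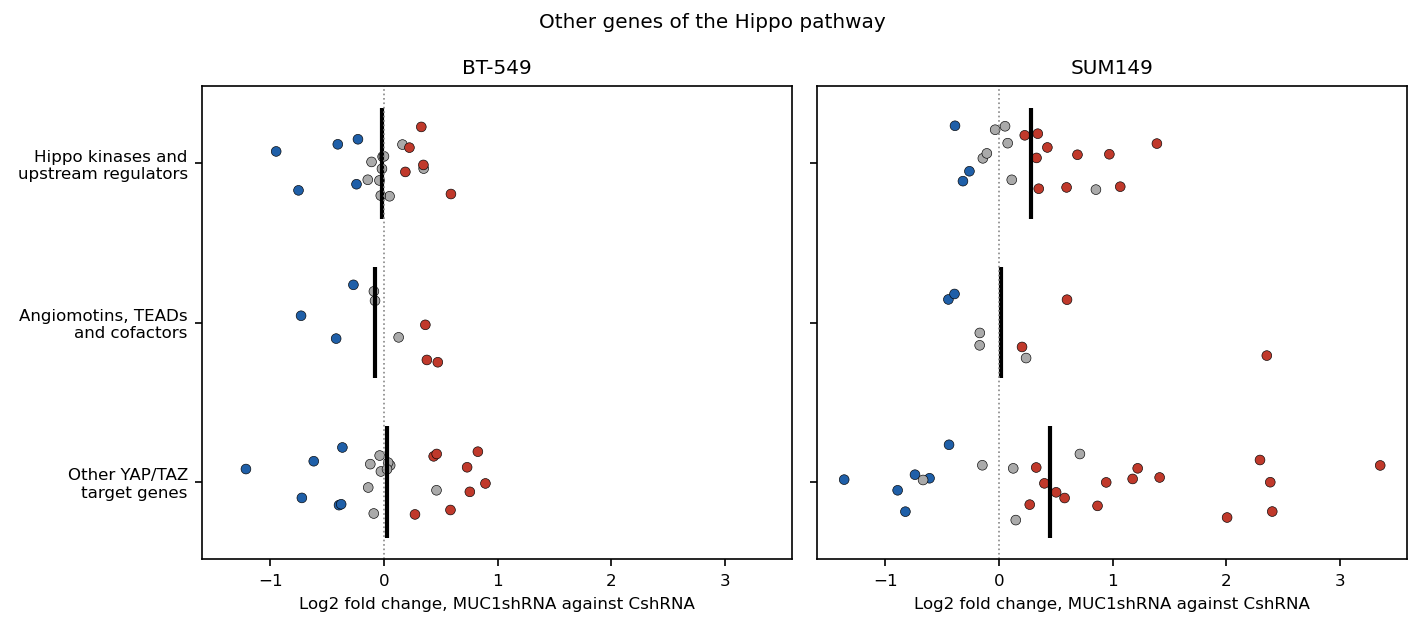
Log2 fold change of MUC1shRNA against CshRNA (horizontal axis) of the tested genes of 3 pathway lists (rows) with 1 panel per line (BT-549 on the left). Red marks genes that rose and blue those that fell by edgeR's test, grey those that did not pass it, and black lines are medians. The medians of the other target genes are 0.03 in BT-549 and 0.45 in SUM149.

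The members' counts were also taken at equal depth and without the libraries that stood apart. With every library thinned to 7931614 counts, 7 members changed in SUM149 and 5 in BT-549, and without SUM149 CshRNA 3 the count in SUM149 was 7. Without BT-549 MUC1shRNA 2 and CshRNA 3, a choice made after seeing the data, 5 members changed in BT-549, with AXL at -0.58, LATS2 at 0.52, AJUBA at -0.28, WWTR1 at 0.24 and AMOTL2 at -0.13. Markers also moved with the arms. In SUM149 the mesenchymal sum was 3030 to 3410 CPM with MUC1shRNA and 817 to 916 CPM with CshRNA, and FN1 made up most of it (3103 ± 191 CPM and 767 ± 53.2 CPM, SD, n = 3 each). VIM (32.3 and 31.4 CPM) and CDH2 (52.6 and 50.9 CPM) overlapped between these arms, ZEB1 averaged 0.723 and 0.116 CPM, and SPARC 0.0715 and 0.811 CPM. In BT-549 the epithelial sum was 808 to 1050 CPM with MUC1shRNA and 329 to 383 CPM with CshRNA. KRT18 (655 ± 99.4 and 290 ± 27.8 CPM) and KRT8 (282 ± 29.9 and 44.5 ± 1.19 CPM, SD, n = 3 each) made up most of it. KRT5 averaged 15.9 and 12.1 CPM, CDH1 1.37 and 0.890 CPM, and KRT19 0.627 and 0.314 CPM. EPCAM (0.0368 and 0.287 CPM) and KRT14 (0.0736 and 0.173 CPM) had lower means with MUC1shRNA. The mesenchymal sum there was 5420 to 6520 CPM with MUC1shRNA and 4420 to 5080 CPM with CshRNA. The part of these markers in the members' changes was not tested.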

How the data were processed

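Per the labels' protocols, total RNA was taken up in Trizol, and TruSeq Stranded mRNA chemistry made the libraries. The deposited table holds raw read counts per Ensembl gene, 1 column for each of the 12 libraries, which the authors did not normalize. Tools listed in the submitters' processing notes, without their roles, are STAR 2.7.0, CASAVA 1.8.2 and DESeq2 1.24.0, and the build listed is GRCh38.p7. Which program counted reads, with what strand setting and annotation, was not given in the sources used here.

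Symbols, coordinates and exon lengths came from GENCODE 29 on GRCh38, and symbols also from a newer name table, and 45 rows of the Y chromosome's pseudoautosomal copies were left out. Depth ran from 7931614 to 24140623 counts per library, which limits the precision of genes with few counts. The fits of single lines used edgeR 4.0.16 (R 4.3.3, TMM, filterByExpr defaults, quasi-likelihood test, Benjamini-Hochberg over all genes tested), and the interaction and the line difference were fitted over all 12 libraries. SE is the fold change divided by the square root of the test's F. Levels are CPM over TMM-adjusted totals of all 12 libraries. The alternatives were RLE and upper-quartile scaling, no filter, DESeq2 1.42.0, limma-voom (limma 3.58.1), thinned counts, 1 joint fit, a replicate block and leaving out each library. The fit was also run on simulated counts with planted changes, and the outcome is not given here. The planted changes were larger than those of WWTR1 and AMOTL2 in BT-549, so the simulation does not bear on changes that small. Columns of a group differed by more than sampling noise (chi-square per degree of freedom 1.85 to 14.5).

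The members and the 3 pathway lists were chosen with earlier results of these data known. Named beside the members and MUC1 were, per list, line and direction, the 2 genes with the smallest adjusted p, and the 3 genes most like YAP1 and WWTR1. Values of a list gene in the line where the rule did not name it, the marker genes beside their sums, and shares of TEAD2 and TEAD3 were added after their values were seen.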

Additional observations from a re-analysis of the deposited data

Results flagged for a closer look

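The change with MUC1shRNA against CshRNA differed between the 2 lines for these genes, by edgeR's interaction test over all 12 libraries. Values are the BT-549 log2 fold change minus that of SUM149. The sample descriptions call the BT-549 controls vector, so the control constructs of the 2 lines may not be alike. Line, medium and any such difference cannot be told apart. Among the members, the difference was -0.67 for TEAD1, -0.47 for TEAD4, -0.61 for LATS2, 0.74 for AJUBA, -0.50 for AXL and -1.82 for F3, with edgeR adjusted p from 3.9e-06 for F3 to 0.0019 for TEAD4. Of the upstream genes it was -0.79 for FRMD6 (0.59 in BT-549 and 1.39 in SUM149), -0.62 for FAT1, -1.33 for WWC1 and -1.05 for MAP4K4. Of the cofactors it was 0.78 for RASSF8, -0.85 for AMOTL1 and -3.07 for VGLL3. Of the other targets it was -1.55 for TGM2, -1.93 for IGFBP3, -4.06 for CCDC80, -2.33 for CCN1, 1.96 for FGF2 and 0.60 for GADD45A. Their edgeR adjusted p ran from 2.5e-09 for CCN1 to 0.0017 for IGFBP3. Some of these list genes passed the test in opposite directions in the 2 lines. RASSF8 and FGF2 rose in BT-549 and fell in SUM149. AMOTL1, FAT1, WWC1, VGLL3 and CCDC80 fell in BT-549 and rose in SUM149. They were named for a small adjusted p in a line, and the share of all genes with opposite calls is not given here. Their number is therefore not read as a trait of the pathway. The BT-549 calls of VGLL3 and AMOTL1 and the SUM149 call of FAT1 were lost under some alternatives.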

How the results depend on the processing

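Of 594 member results under another setting, 567 kept their direction and their side of the threshold, 18 lost the call, 1 gained it and 8 changed sign. The members changed in BT-549 were 5, against 3 with all 12 libraries in one fit, 3 with a replicate block and 2 to 6 when 1 library was left out (2 without CshRNA 1, 3 without MUC1shRNA 1 or 3). In SUM149 they were 7, and 6 to 7 when 1 library was left out; without a filter they were 8, with ANKRD1, and the median of all genes there was -0.20, against -0.03. The members whose response differed between the lines were 6 in every fit. Over all genes, 4398 changed in BT-549 and 2716 to 4470 when 1 library was left out, with 2716 without MUC1shRNA 1, and 2951 with the replicate block. The 8 changes of sign were of values that did not pass: the difference between responses of YAP1 (-0.029 to 0.11 with 1 library left out), TEAD1 in BT-549 (-0.0061 with upper-quartile scaling, -0.046 to 0.064 with 1 library left out) and TEAD1 between the lines (0.041 without a filter, -0.079 to 0.062 with 1 library left out). CCN1 in BT-549 ran from -0.0014 to 0.15 with 1 library left out. The cause was not tested. Same-numbered libraries of the 2 arms correlated at -0.254 to 0.0963 in BT-549 and -0.0673 to 0.0904 in SUM149. Differently numbered ones correlated at -0.201 to 0.33 and -0.139 to 0.155. With 3 libraries an arm, these values cannot show whether same-numbered libraries were paired. The replicate block ended the calls of WWTR1 and AMOTL2 in BT-549. Depth limits ANKRD1, at 0 to 5 counts a library, and F3 in BT-549, at 24 to 38.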
